A study of Mus musculus with 4 samples.

Results

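The genes described here encode the proteases of endosomes and lysosomes that cut proteins for antigen presentation, together with a reductase and an inhibitor that act with them. The members are Ctss, Ctsb, Ctsd, Ctsl, Ctsz, Ctsh, Ctsc, Lgmn, Ifi30 and Cst3, chosen by symbol, and all 10 were found among the 55450 gene rows. In antigen-presenting cells, material taken up from outside passes into acidic compartments, where cathepsins and legumain cut it into peptides that load onto MHC class II. The same enzymes also cut the invariant chain, which blocks the peptide groove of class II until it is degraded, and cathepsin S carries out the late step of that cutting in dendritic cells. Cystatin C, a secreted inhibitor encoded by Cst3, blocks cysteine cathepsins, and its transcript is abundant in conventional dendritic cells.

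RNA was sequenced from CD11c+ cells, enriched with magnetic beads from mesenteric lymph nodes of wild-type C57BL/6J mice, and CD11c, which marks dendritic cells, is also found on some macrophages. The cells of each pool of 2 nodes were cultured for 6 h in medium with serum, some with water only as control and the rest with an Ffar2 agonist at 10 µM. Ffar2 is a receptor for short-chain fatty acids, and the series title links it to IL-27 made by dendritic cells. There were 2 control and 2 agonist libraries, and the receptor gene itself was low, with 4.04 and 3.87 CPM in the control and 1.71 and 2.05 CPM in the agonist libraries (CPM, counts relative to the library total, scaled with TMM factors). It did not pass the agonist test (log2 fold change -1.07, SE 0.47, edgeR adjusted p = 0.9999), and the groups did not overlap for 25% of all tested genes. Both groups carry the numbers 2 and 3, called pool 2 and pool 3 here. Wells with the same number were taken to share their cells, since the cells of each pool were divided between wells. The age and sex of the mice and the agonist's chemical name are not given in the sources used here, and the pools are the only replication.

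Reads assigned to genes numbered 43238375 to 59902172 per library. The transcript Xist, made from the inactive X chromosome of females, was read 17776 and 21194 times in pool 2 (control and agonist) but 0 times in pool 3, so differences between the pools cannot be told apart from the sex of the mice. Itgax, which encodes CD11c, had 95.5 to 189 CPM, and Zbtb46, a transcription factor of conventional dendritic cells, 56.6 to 74.8 CPM. Summed over each marker list, conventional dendritic cell genes had 9348 to 15530 CPM, of which Ccr7 made up most, monocyte and macrophage genes 3109 to 5486 CPM, B cell genes 1240 to 2298 CPM and T cell genes 942 to 1933 CPM. The neutrophil list summed to 6.85 to 18.1 CPM, and 4 of its 9 genes were tested. Of its defining genes, Ly6g had 0 reads and Elane 0 to 2 reads per library.

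Promoter sequences are shown first, because several members carry the same short motif near their start. RefSeq windows (GRCm38.p6) were at hand for 8 of the 10 genes, in 9 windows, with no entry for Ctsb and Ctsh. Each window was searched on both strands over the 250 bases before the start. The letters CACGTG, which read the same on both strands and form the core of the element bound by the lysosomal regulators TFEB and TFE3, were found for 4 genes, Ctsd, Ctsl, Lgmn and Ifi30, against 6.02% of all 32851 windows. A pair of GAAA runs spaced by NN, the core of the interferon-stimulated response element, was found for Ctss, against 2.98% of windows. Ctsc held TTCNNNGAA and GAGGAAGT, a STAT-type and a PU.1-type motif found in 7.02% and 2.44% of windows, and no match overlapped one of another motif. Windows of Cst3 and Ctsz held none of these letters.

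The motif is in capitals below. Ctsd had CACGTG at both 245 and 98 bases before its start (chr7:142388048-142388077 and chr7:142387908-142387937, minus strand), the nearer one within an exon of an alternative annotated transcript. In Ctsl it began 236 bases before the start (chr13:64370739-64370768, minus strand), partly within an exon of another transcript. Ifi30 had it 196 bases before the start (chr8:70766807-70766906, minus strand), and Lgmn 49 bases before the downstream of its annotated starts (chr12:102439093-102439192, minus strand). In Ctss the motif began 21 bases before the start (chr3:95526686-95526785, plus strand).
Ctsd, far site: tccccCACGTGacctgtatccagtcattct
Ctsd, near site: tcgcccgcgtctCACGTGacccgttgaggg
Ctsl: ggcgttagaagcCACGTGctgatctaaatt
Ifi30: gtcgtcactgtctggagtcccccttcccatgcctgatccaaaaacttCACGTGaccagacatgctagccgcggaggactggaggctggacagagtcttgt
Lgmn: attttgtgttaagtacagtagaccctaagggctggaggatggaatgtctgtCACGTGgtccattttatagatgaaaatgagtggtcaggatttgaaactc
Ctss: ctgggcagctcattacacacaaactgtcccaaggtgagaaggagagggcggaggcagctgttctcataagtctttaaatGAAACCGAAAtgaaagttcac
A match of letters is a description and not a binding site.

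In GRCm38, Ctss lies on chromosome 3 (95526786 to 95556403), Ctsb on 14 (63122462 to 63145923), Ctsl on 13 (64359337 to 64370890) and Ctsh on 9 (90054152 to 90076089). Ctsc (88278085 to 88310888) and Ctsd (142375911 to 142388038) lie on chromosome 7, and Ctsz (174427493 to 174439039) and Cst3 (148871722 to 148875692) on chromosome 2. Lgmn is on chromosome 12 (102394084 to 102439813) and Ifi30 on chromosome 8 (70762774 to 70766663), and Ifi30 alone among them is annotated as a processed transcript and not as protein coding in GENCODE M21.

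All 10 members were well expressed and passed the filter on low counts. Together they took 1.22% and 1.17% of gene reads in the control libraries of pools 2 and 3, and 1.10% and 1.21% in the agonist libraries. Cst3 supplied 36.8% of their reads over the 4 libraries, Ctsz 16.5% and Ctsb 14.8%. To compare genes, CPM was divided by the length of merged exons in kilobases. Cst3 had the highest level on this scale, 3386 ± 908 (SD, n = 4 libraries), above 99.96% of the 18297 tested genes. Ctsz, a carboxypeptidase, followed with 1337 ± 161, then Ctss with 771 ± 65.3 and Ifi30, the thiol reductase that opens disulphide bonds of antigens, with 568 ± 99.96. None of these 4 overlapped its neighbour in the order over the libraries.

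Below them, Lgmn, the asparagine-specific protease legumain, had 329 ± 61.1 CPM per kilobase and Ctsb, which acts as endopeptidase and as carboxypeptidase, 296 ± 96.1, and their ranges overlapped. Ctsh, an aminopeptidase, had 145 ± 8.92 and stood apart from both neighbours. Ctsc, a dipeptidyl peptidase that also activates granule serine proteases, had 78.1 ± 11.4 and Ctsd, the main aspartic protease of lysosomes, 75.0 ± 22.9, again with overlapping ranges. Ctsl, an endopeptidase better known for cutting the invariant chain in thymic epithelium and macrophages, was the lowest with 20.8 ± 8.62, still above 87.8% of tested genes. Part of the exon length of Ctsd (34.4%), Ctsl (26.8%) and Ctsb (12.8%) is shared with other annotated genes, and reads that fall there can be left uncounted as ambiguous. On unshared exon length Ctsb passed Lgmn and Ctsd passed Ctsc, and the other 6 genes kept their rank.

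**Figure D1:**
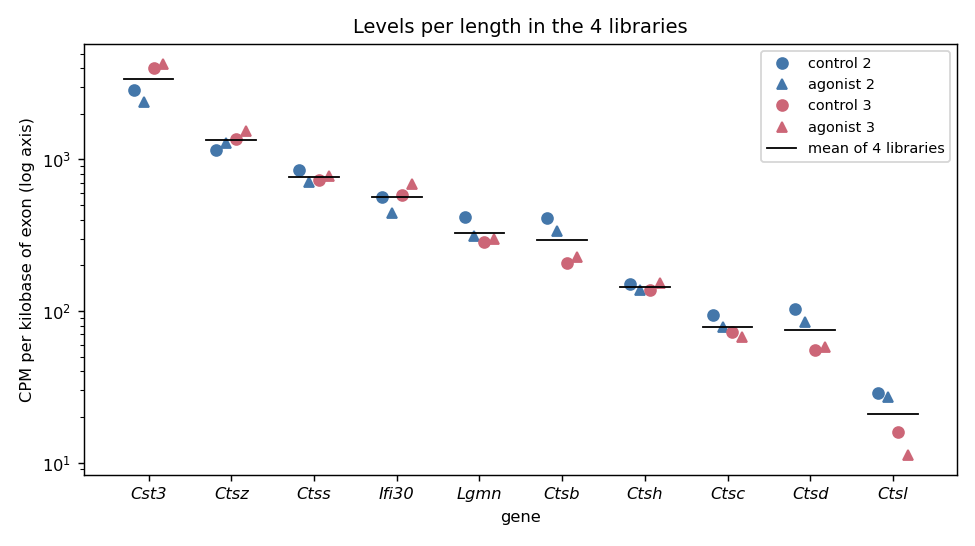
Level of each gene in CPM per kilobase of merged exon (log axis), with 1 point per library (circles, control; triangles, agonist; blue, pool 2; red, pool 3) and a line at the mean of the 4 libraries. Means run from 3386 for Cst3 to 20.8 for Ctsl. The colours separate for all members but Ctss and Ctsh, and the shapes for none.

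The agonist comparison asks whether 6 h with the Ffar2 agonist changed the transcripts of this machinery. No member passed: 0 of 10 had an adjusted p under 0.05 in edgeR's quasi-likelihood test, where 0 of all 18297 genes did (a background of 0%). At an unadjusted p under 0.05 the count of members was also 0, against 1.58% of all tested genes, and limma-voom and DESeq2 called 0 members as well. With the wells paired by pool the count was again 0, against 0.00547% of all tested genes. The SE and intervals given per member for this comparison come from the fit without pairing, whose spread includes the difference between the pools. With pairing the SE was 0.23 to 0.25 over the 10 members, against 0.24 to 0.50 without it. The widest interval, that of Ctsl, became -0.85 to 0.25. Values of agonist and control libraries overlapped for all 10 members, while they did not overlap for 25% of tested genes. In bulk RNA, fewer cells of a type and less RNA per cell cannot be told apart, here and below.

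Among the cysteine endopeptidases, Ctss had 1165 and 999 CPM in the control libraries of pools 2 and 3 and 963 and 1062 CPM in the agonist libraries. The order of the conditions thus differed between the pools, with a fitted log2 fold change of -0.10 (SE 0.24, 95% interval -0.68 to 0.49, edgeR adjusted p = 0.9999). For Ctsl the controls had 188 and 103 CPM and the agonist libraries 176 and 72.5 CPM. Values were lower with the agonist in both pools, by -0.10 and -0.50 log2 units, with a fitted log2 fold change of -0.23 (SE 0.50, interval -1.44 to 0.98, edgeR adjusted p = 0.9999).

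Ctsb, next after Ctsz and Ctss among the papain-type cathepsins in level per length, had 2486 and 1256 CPM in the control and 2048 and 1369 CPM in the agonist libraries. The pools differed more than the conditions, and the fitted value was -0.13 (SE 0.39, interval -1.08 to 0.82). Ctsz stood at 1675 and 1952 CPM without and 1849 and 2228 CPM with the agonist. It was the only member higher with the agonist in both pools, by 0.14 and 0.19 log2 units (fitted 0.17, SE 0.25, interval -0.43 to 0.76), where 21% of all tested genes were higher in both. Ctsh was the steadiest member, with 682 and 616 CPM in the control and 616 and 689 CPM in the agonist libraries, and a log2 fold change of 0.01 (SE 0.24, interval -0.58 to 0.60). For Ctsc the controls had 546 and 425 CPM and the treated wells 454 and 391 CPM. It was lower with the agonist in both pools, by -0.27 and -0.12 log2 units (fitted -0.20, SE 0.27, interval -0.85 to 0.45), a direction shared in both pools by 27.8% of tested genes.

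Outside the papain family, Ctsd had 243 and 129 CPM in the control and 197 and 136 CPM in the agonist libraries, with a log2 fold change of -0.16 (SE 0.39, interval -1.09 to 0.78). Lgmn had 974 and 664 CPM in the control and 729 and 693 CPM in the agonist libraries (log2 fold change -0.20, SE 0.28, interval -0.89 to 0.48), and control replicate 2 stood above the other libraries. Ifi30 had 553 and 569 CPM in the control and 434 and 673 CPM in the agonist libraries, so that both extremes were agonist libraries (log2 fold change -0.02, SE 0.30, interval -0.74 to 0.70). Cst3 had 3643 and 5061 CPM in the control and 3007 and 5433 CPM in the agonist libraries, an estimate of -0.04 on the log2 scale (SE 0.35, interval -0.89 to 0.80). Each of these members had an edgeR adjusted p of 0.9999.

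**Figure D2:**
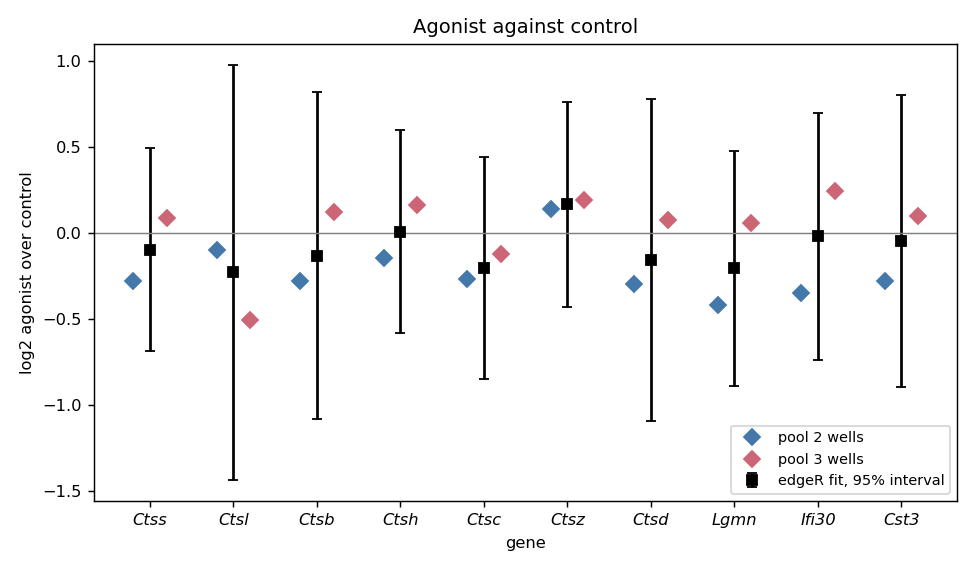
Log2 agonist over control for each member. Black squares are the edgeR estimates with 95% intervals from the fit without pairing, blue and red diamonds the differences of single wells in pool 2 and pool 3. All 10 intervals include 0, and blue lies below 0 for 9 members and red above 0 for 8.

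The sign of the difference went with the pool for most members: 7 of 10 were lower with the agonist in pool 2 and higher in pool 3, against 28.1% of tested genes, and 0 were the reverse, against 22.5%. In pool 2 the log2 difference of agonist and control was below 0 for 9 of 10 members, with a median of -0.28 and an SD of 0.16 over the members. The values ran from -0.42 for Lgmn to 0.14 for Ctsz. Between them lay, among others, Ctss at -0.28, Ctsb at -0.28, Ctsd at -0.30, Cst3 at -0.28 and Ctsc at -0.27. In pool 3 the difference was above 0 for 8 of 10, with a median of 0.10. Abundant genes moved likewise. Over the 2002 tested genes with a mean of at least 100 CPM the median was -0.19 in pool 2, with 72.4% below 0, and 0.08 in pool 3, with 25.9% below 0, while over all tested genes the medians were -0.09 and -0.0048. The signs in pool 3 depended in part on the scaling. With total counts only in place of TMM, Lgmn turned to -0.012 there, and Ctsd, Ctss and Cst3 had 0.0015, 0.015 and 0.029. The other members kept their sign in both pools.

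Ratios of members within a library do not depend on the scaling between libraries, and these were chosen after the values were seen. Cst3 had 1.47 reads for each Ctsb read in both libraries of pool 2, against 4.03 in the control and 3.97 in the agonist library of pool 3. The ratio of Cst3 to Ctss was 3.13 and 3.12 in the control and agonist libraries of pool 2 and 5.07 and 5.11 in those of pool 3. For Ctsb over Ctss the values were 2.13 and 2.13 in pool 2 and 1.26 and 1.29 in pool 3. Ctsl over Ctss was less constant, with 0.161 and 0.183 in pool 2 and 0.103 and 0.0682 in pool 3. Cst3 relative to the sum of the 6 cysteine cathepsins was 0.540 and 0.493 in pool 2 and 0.946 and 0.935 in pool 3.

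**Figure D3:**
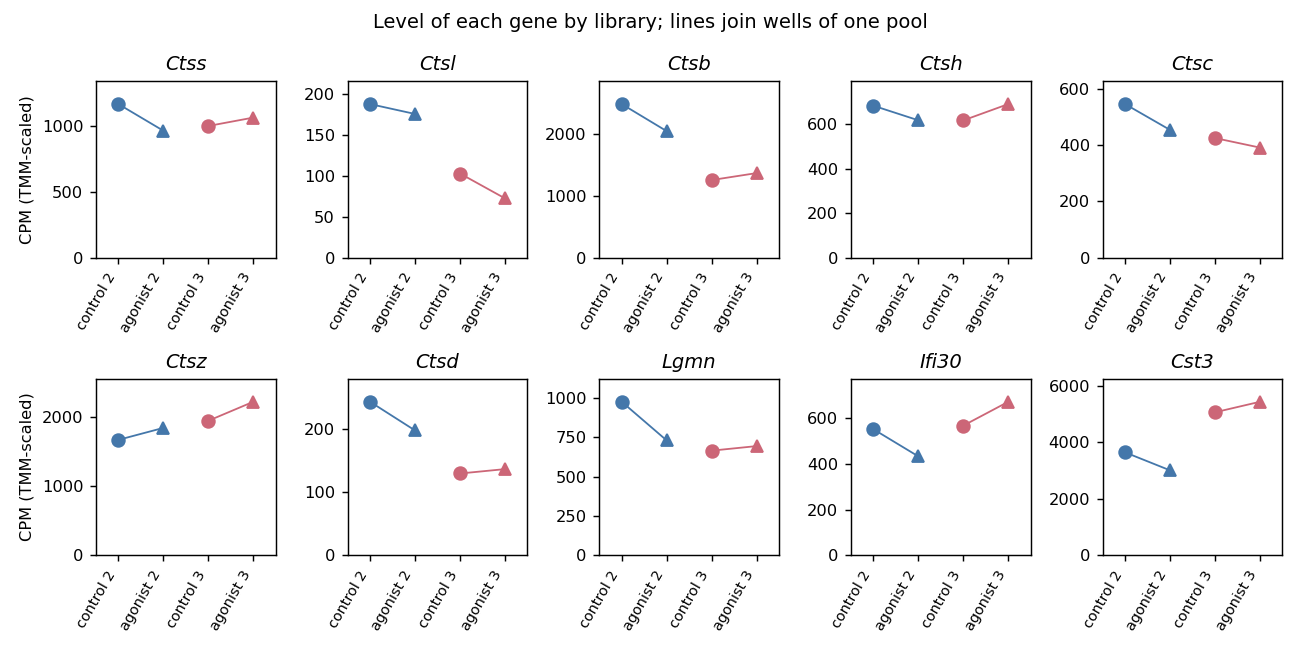
TMM-scaled CPM of each member in the 4 libraries (linear axes from 0; circles, control; triangles, agonist), with a line joining the wells of a pool (blue, pool 2; red, pool 3). Ctsb, Ctsd, Ctsl, Ctsc and Lgmn are lower and Cst3, Ctsz and Ifi30 higher in both wells of pool 3, such as 1256 and 1369 CPM against 2486 and 2048 CPM for Ctsb.

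The comparison of the pools, with group as a covariate, sets 1 pool against 1 pool, and the spread it tests against is that of wells filled from 1 source of cells. No member passed here either: 0 of 10 had an adjusted p under 0.05 in edgeR's test, where 0.394% of all tested genes did (72 genes). Without the adjustment 3 members had a p under 0.05 and were lower in pool 3, against 7.71% of tested genes, and 1 was higher, against 6.15%. Libraries of the pools did not overlap for 8 members, 5 with both libraries of pool 3 below both of pool 2 (25.2% of tested genes) and 3 above (24%).

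Ctsl had the largest difference among the members. Its mean was 182 ± 8.56 CPM in pool 2 and 87.7 ± 21.5 CPM in pool 3 (SD, n = 2 wells each), a log2 difference of -1.07 (SE 0.24, 95% interval -1.63 to -0.52, unadjusted p = 0.00182, edgeR adjusted p = 0.0973). It was called with no filter on low counts (adjusted p = 0.0279), where 2.1% of all genes were, and by DESeq2 (adjusted p = 0.00603), where 4.01% were, and not by limma-voom (adjusted p = 0.0507). Ctsb had 2267 ± 310 CPM in pool 2 and 1312 ± 79.7 CPM in pool 3, a log2 difference of -0.78 (SE 0.24, edgeR adjusted p = 0.192). For Ctsd the means were 220 ± 32.0 and 133 ± 4.90 CPM, a log2 difference of -0.72 (SE 0.24, edgeR adjusted p = 0.222). Cst3 went the other way, with 3325 ± 450 CPM in pool 2 and 5247 ± 263 CPM in pool 3, a log2 difference of 0.66 (SE 0.24, interval 0.11 to 1.22, edgeR adjusted p = 0.267). Fits with 1 library left out had no group term and left that library's pool with 1 library. Without agonist replicate 2, edgeR called 3 members, Ctsb (adjusted p = 0.0277), Ctsd (0.0253) and Ctsl (0.0308), where it called 7.98% of all genes. Without control replicate 2 it called 2, Ctsb (adjusted p = 0.0489) and Cst3 (0.0355), where it called 4.25% of all genes. Without control replicate 3 or agonist replicate 3 it called 0 members, where it called 0.00508% and 0.0504% of all genes.

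The remaining members had smaller differences between the pools. Ctss (-0.04, SE 0.24) and Ctsh (0.01, SE 0.24) were near 0, with intervals of -0.58 to 0.50 and -0.53 to 0.54. Lgmn had a log2 difference of -0.31 (SE 0.24), Ctsc one of -0.29 (SE 0.23), Ctsz one of 0.24 (SE 0.23) and Ifi30 one of 0.34 (SE 0.25), with edgeR adjusted p values of 0.615 to 0.712. Of the 4 genes with CACGTG in the promoter window, Ctsd and Ctsl had lower values in pool 3, Lgmn a smaller difference and Ifi30 one in the other direction. Those of Lgmn and Ifi30 depended on the wells, with -0.55 and 0.04 in the control and -0.07 and 0.63 in the agonist wells. Ctsb, also lower in pool 3, had no promoter window, and a link between the motif and these values was not tested. Tfeb, whose product binds that motif, had 9.12 and 7.77 CPM in the control and 17.0 and 9.34 CPM in the agonist libraries, and its relative Tfe3 had 41.0 and 61.8 CPM and 98.0 and 59.8 CPM. Agonist replicate 2 was the highest library for both regulators, and neither passed the agonist test (log2 fold changes 0.64, SE 0.42, and 0.62, SE 0.37, edgeR adjusted p = 0.9999).

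**Figure D4:**
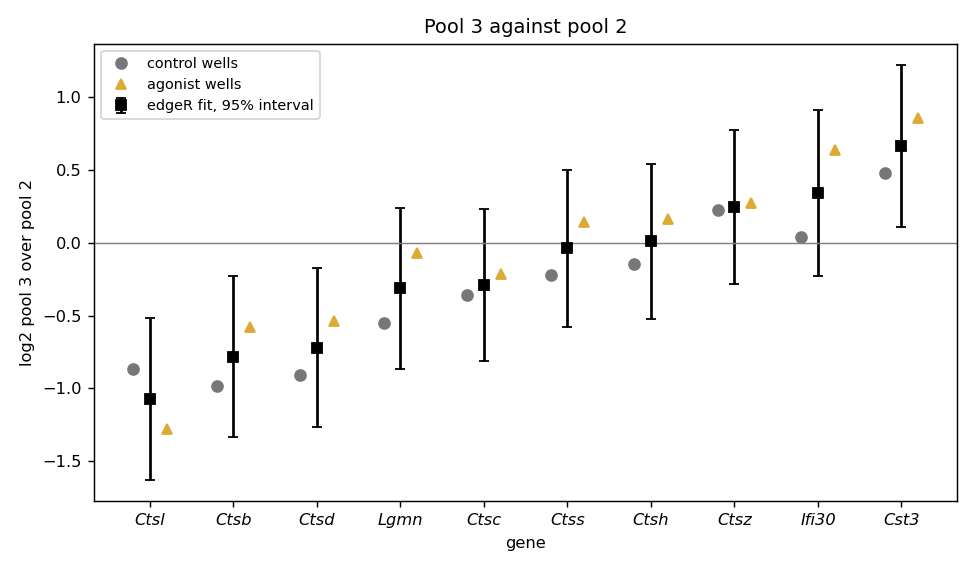
Log2 pool 3 over pool 2 for each member, ordered by the edgeR estimate (black squares with 95% intervals), with the difference in the control wells (circles) and in the agonist wells (triangles). Ctsl, Ctsb, Ctsd, Lgmn and Ctsc lie below 0 and Ctsz, Ifi30 and Cst3 above it in both conditions, with estimates from -1.07 to 0.66.

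Marker genes of other cell types also had different levels in the pools. Monocyte and macrophage genes summed to 5486 and 4984 CPM in the control and agonist libraries of pool 2 and to 3109 and 3448 CPM in those of pool 3, and Lyz2 made up most of that sum. Of the 14 such genes tested, 8 had lower and 6 higher values in pool 3, and 0 passed in edgeR's test. At an unadjusted p under 0.05 there were 4 lower, against 7.71% of all tested genes. Only Cd14 was higher (log2 difference 0.73), against 6.15% of all tested genes. Both libraries of pool 3 lay below both of pool 2 for 7 of the 14, against 25.2% of all tested genes, and above for 4, against 24%. The 3 most abundant, Lyz2, Csf1r and C1qb, had log2 differences of -0.73, -0.32 and -0.55. Other defining macrophage genes were near 0, with 0.442 to 1.05 CPM for Cd163 and at most 0.404 CPM for Vsig4. T cell genes summed to 1933 and 1511 CPM in pool 2 and 1183 and 942 CPM in pool 3, and 19 of 20 had lower values there, 0 of them passing. At an unadjusted p under 0.05 in edgeR's test 16 of the 20 were lower, against 7.71% of all tested genes. Of 17 B cell genes, 15 had lower values in pool 3 and 1 of these passed, against 0.394% of all tested genes. At an unadjusted p under 0.05 in edgeR's test 8 were lower. Among 8 genes of plasmacytoid dendritic cells, 7 had lower values in pool 3 and 1 passed, also lower. At that unadjusted threshold 6 of these 8 were lower, where 7.71% of all tested genes were. Over all 18297 tested genes, 9228 had lower and 9069 higher values in pool 3. The list of conventional dendritic cells summed to 11615 and 9348 CPM in pool 2 and 14260 and 15530 CPM in pool 3, with higher values for 10 of 14 genes and 0 passing. Itgax itself had a log2 difference of -0.87 (SE 0.23, edgeR adjusted p = 0.134) and Xcr1, a receptor of the cross-presenting class, had a value of 1.27 (SE 0.31, edgeR adjusted p = 0.111). The part of cell composition in the members' differences was not tested.

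The wider pathway was read from 86 other genes in 6 lists, of which 81 were tested. In the agonist comparison 0 of them passed in edgeR's test, and 2 had an unadjusted p under 0.05, both lower, against 1.58% of all tested genes. Sort1, which encodes the sorting receptor sortilin, had 12.8 and 12.9 CPM in the control and 6.29 and 7.79 CPM in the agonist libraries (log2 fold change -0.87, SE 0.35, unadjusted p = 0.0471, edgeR adjusted p = 0.9999). Ctsk, the osteoclast cathepsin, had 19 and 53 reads without and 0 and 3 reads with the agonist (unadjusted p = 0.0189, edgeR adjusted p = 0.9999), levels too low for a useful fold. The list medians lay between -0.16, for MHC class II genes, and -0.01, for protease inhibitors, beside -0.05 over all tested genes and -0.11 over the members. H2-Ab1, a class II beta chain, had the largest single value among class II genes, 0.84 (SE 0.35, edgeR adjusted p = 0.9999), with 1.33 in pool 2 and 0.21 in pool 3. Its groups did not overlap, as for 25% of all tested genes, while 9 of the 11 class II genes had lower fitted values with the agonist. The transporter gene Tap1 had 0.76 (SE 0.42), again with 1.62 in pool 2 and 0.12 in pool 3, and Hexa, a hexosaminidase subunit, 0.75 (SE 0.40), with 1.52 in pool 2 and -0.00018 in pool 3. Other genes with the smallest p in each list had log2 fold changes of -0.58 for Ctsw, 0.92 for Ctsf, -0.20 for Tpp1, -0.64 for Igf2r, -0.32 for Smpd1 and -0.27 for Grn. Rfx5 had 0.54, H2-Oa -0.34, H2-Eb1 -0.24, Tap2 -0.23, Psmb9 -0.20, Tapbp 0.28 and Serpina3g 0.10, and Serpinb6b, Cst7 and Serpinb6a lay between -0.05 and -0.03.

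Between the pools 3 of the 81 genes passed, 1 higher and 2 lower in pool 3, against 0.394% of all tested genes. Gusb, the lysosomal glucuronidase, had 37.9 and 80.5 CPM in the control and agonist libraries of pool 2 and 197 and 257 CPM in pool 3, and rose by 2.03 on the log2 scale (SE 0.27, edgeR adjusted p = 0.0280). Npc1, a cholesterol transporter of the lysosomal membrane, had 52.1 and 97.5 CPM in pool 2 and 15.6 and 13.4 CPM in pool 3, a log2 difference of -2.30 (SE 0.34, edgeR adjusted p = 0.0339). Ctse, an aspartic protease of endosomes, had 36.4 and 26.1 CPM in pool 2 and 7.77 and 8.07 CPM in pool 3, a log2 difference of -1.96 (SE 0.32, edgeR adjusted p = 0.0455). All 3 calls were lost with total counts only, with the stricter filter and without the group term, and that of Ctse also with DESeq2 size factors (adjusted p = 0.0517).

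By list, the median log2 difference between the pools was -0.31 for the other lysosomal proteases, -0.35 for MHC class II genes, -0.11 for lysosomal membrane, acid pump and regulator genes, -0.08 for the other hydrolases, 0.42 for trimming and transport genes and 0.48 for protease inhibitors, beside -0.01 over all tested genes and -0.16 over the members. Of the 8 inhibitors tested, 6 had higher and 2 lower values in pool 3. Serpinb1a, an inhibitor of neutrophil-type serine proteases, had a log2 difference of 1.34 (SE 0.26, edgeR adjusted p = 0.0741) and Serpinb9, an inhibitor of granzyme B, one of 0.72 (SE 0.24, edgeR adjusted p = 0.228). Cst7, cystatin F, which is targeted to lysosomes and acts on Ctsc, had a value of -0.77 (SE 0.31, edgeR adjusted p = 0.307), opposite in direction to Cst3. Among the genes of the lysosomal proteases and membrane, Ctsa had a value of -0.68 (SE 0.23), while Ctsw was 2.01-fold and Cd68 1.99-fold lower in pool 3 (edgeR adjusted p = 0.126 and 0.113, and 0.237 for Ctsa). Prcp had 0.68 and Cst6 1.33 in pool 3 over pool 2, Atp6v0d2 had -1.05, Atp6v1b2 0.66, Cd63 0.50 and Acp5 -0.87, and none passed. H2-Ob, a chain of the class II regulator H2-O of B cells, had -1.19 (SE 0.23, edgeR adjusted p = 0.0741), while Cd74, the invariant chain itself, had -0.21 (SE 0.26), at 10812 to 15320 CPM. H2-Oa had -1.03, H2-Eb1 -0.70 and the class II regulator Ciita 0.49, and among trimming and transport genes Tapbp had 0.92, Psmb10 0.57, Psme2 0.52 and Psmb8 0.42, none of them passing.

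**Figure D5:**
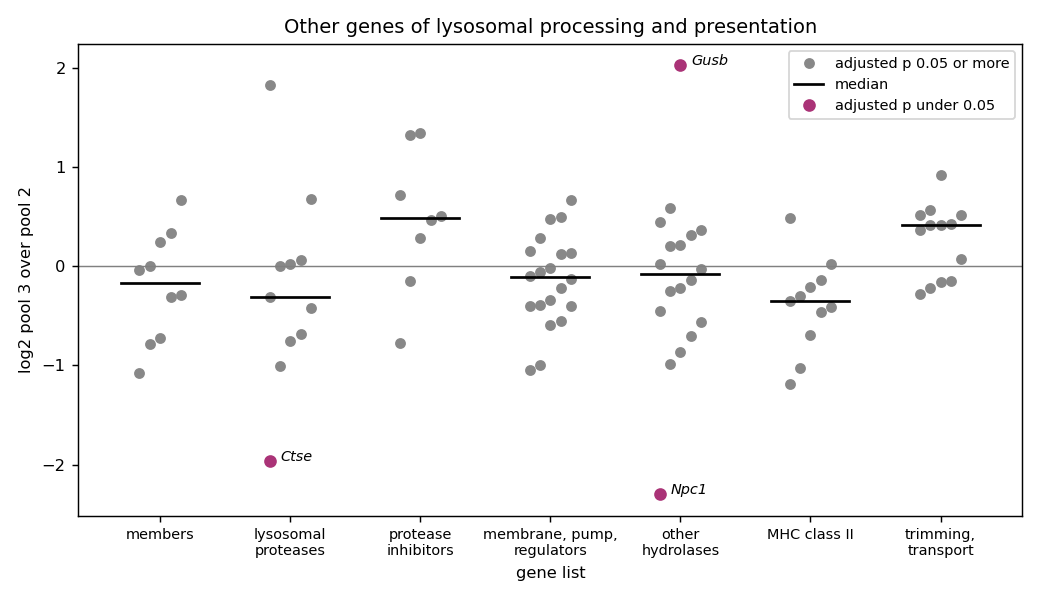
Log2 pool 3 over pool 2 of the members and of the tested genes in 6 lists of lysosomal processing and presentation, 1 point per gene, with a line at each list's median. The coloured points are Gusb (2.03), Ctse (-1.96) and Npc1 (-2.30), and no member is coloured.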

How the data were processed

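The deposited files give whole-number counts of reads per gene, as the authors left them before any normalization, with 1 file per library. The submitters' processing notes name STAR (version 2.7), HTSeq (0.11.1) and GRCm38 (mm10), per the labels. Strand setting and annotation release are not given in the sources used here, and the kit was SMART-seq v4 per the labels' protocols. All 55450 identifiers matched GENCODE M21, which supplied exon lengths. Lines that name no gene (29.2% to 33.2% of reads) were left out.

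Counts were filtered with filterByExpr (minimum count 10, 18297 genes), scaled by TMM (factors 0.947 to 1.05) and tested two-sided with edgeR 4.0.16 in R 4.3.3, with Benjamini-Hochberg adjustment over all genes and a threshold of 0.05. P-values measure the spread between these libraries. SE was derived from the fold change and F, and differences of single wells use a prior count of 2. DESeq2 1.42.0, limma 3.58.1, other scalings, filters and left-out libraries were alternatives. Libraries with the same number were taken as wells of 1 pool, since the protocol divided the cells of each pool between wells (r = 0.288 between same-numbered deviations over 18297 genes). The scripts were tested on simulated data. Members and lists were chosen with earlier results of these data known. Besides the members, the text names up to 4 genes per pathway list and comparison with the smallest p, and up to 3 most abundant genes and defining markers at 0 per marker list. Some genes that this rule names are not reported here. Itgax, Zbtb46, Xcr1, Cd14, Cd163, Vsig4, Elane, Cd74, Xist and Ffar2 lie outside this rule and were named after their values were seen.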

Additional observations from a re-analysis of the deposited data

Results flagged for a closer look

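For 7 members the agonist value was lower than the control in pool 2 and higher in pool 3, a difference that was not tested, since each pool has 1 well per condition. The same order was seen for 28.1% of all tested genes. Abundant genes moved likewise: of the 2002 with a mean of at least 100 CPM, 72.4% were below 0 in pool 2 and 25.9% in pool 3. The order depended on the scaling for Lgmn, which had -0.012 in pool 3 with total counts only. The difference in pool 2 minus that in pool 3 was -0.36 log2 units for Ctss, -0.40 for Ctsb, -0.37 for Ctsd, -0.31 for Ctsh, -0.48 for Lgmn, -0.59 for Ifi30 and -0.38 for Cst3.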

How the results depend on the processing

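In the agonist comparison 0 members and 0 other pathway genes were called under every alternative run. The count over all genes, 0, became 9 with no filter, 7 in DESeq2, 1 with the replicate block, 6 with the replicate block in DESeq2 and 0 to 2 with a library left out. With the replicate block Ctsl had -0.30 (SE 0.24) and Cst3 -0.09 (SE 0.24), and no call of a member changed. Values near 0 turned sign: Ctsh to -0.00067 with total counts only, Ifi30 to 0.012 with DESeq2 size factors and 0.012 in DESeq2, and with the stricter filter Ifi30 to 0.030, Cst3 to 0.00096, Serpinb6b to 0.021, Cst7 to 0.024 and Serpinb6a to 0.020. With a library left out, which unbalances the pools, agonist values ranged from -0.54 to 0.35 for Cst3, -0.46 to 0.44 for Ctsb, -0.46 to 0.37 for Ctsd, -0.080 to 0.12 for Ctsh, -0.97 to 0.27 for Ctsl, -0.17 to 0.019 for Ctss, -0.38 to 0.30 for Ifi30, -0.38 to 0.097 for Lgmn, -0.10 to 1.52 for Ctsf, -0.32 to 0.027 for Tpp1, -0.17 to 0.45 for Serpina3g, -0.11 to 0.12 for Serpinb6b, -0.46 to 0.38 for Cst7, -0.23 to 0.17 for Serpinb6a, -0.53 to 0.17 for Grn, -0.79 to 0.51 for H2-Oa, -0.60 to 0.39 for H2-Eb1, -0.33 to 0.029 for Psmb9 and -0.17 to 0.98 for Tapbp.

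Between the pools, the 72 genes called became 5 with total counts only, 600 with no filter, 8 with the stricter filter, 706 in DESeq2, 275 in limma-voom and 5 with no group term. Members called, 0, became 1 with no filter and 1 in DESeq2, Ctsl in both. The 3 other pathway genes became 0 with total counts only, 7 with no filter, 0 with the stricter filter, 9 in DESeq2, 5 in limma-voom and 0 with no group term. In fits with no group term, chosen after seeing the data, 841 genes, 2 members and 13 pathway genes were called without control replicate 2, 1575, 3 and 20 without agonist replicate 2, 1, 0 and 0 without control replicate 3, and 10, 0 and 0 without agonist replicate 3. Ctsh turned to -0.075 with total counts only, -0.047 with the stricter filter, -0.044 without agonist replicate 2 and -0.069 without agonist replicate 3, and Ctss to 0.10 without control replicate 2 (no group term). As untested values, with libraries left out Ctsh ranged from -0.15 to 0.16, Ctss from -0.22 to 0.14, Ifi30 from 0.041 to 0.63 and Lgmn from -0.55 to -0.073. With the group term and a library left out there are no residual degrees of freedom, so no count was made. The cause of these shifts was not tested.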
